A study of Mus musculus with 6 samples.

Results

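Polycomb group genes encode the subunits of a pair of chromatin complexes that hold developmental genes silent. Polycomb repressive complex 2 (PRC2) methylates a lysine in the tail of histone H3, and Polycomb repressive complex 1 (PRC1) ubiquitinates histone H2A and compacts chromatin. In embryonic stem cells, which can form every tissue of the embryo, the complexes occupy CpG-rich promoters of lineage regulators, and cells without PRC2 can self-renew but differentiate poorly. The transcripts described here are those of 10 genes: the catalytic subunits Ezh1 and Ezh2, the core subunits Eed and Suz12, the accessory subunits Jarid2, Aebp2, Mtf2 and Phf19, and the PRC1 subunits Phc1 and Rnf2. They were chosen by gene symbol, as genes with a probe set whose only annotated symbol was the gene's own. The choice was made with earlier results of these data known. All 10 were measured, of 19937 genes in all.

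The samples were 3 arrays of mouse embryonic stem cells after knockdown of Trim71 and 3 arrays of control cells of the same type, hybridised with amplified total RNA. Trim71 (Lin41) is an RNA-binding ubiquitin ligase of stem cells and early embryos. The labels' protocol describes transfection with Dharmafect1 of 3 siRNAs that target Trim71, or of a negative control siRNA, and a harvest 72 h later, while the control samples are labelled wild-type, so whether those arrays hold RNA of transfected cells was not settled by the labels. The stem cell line was not named, and nothing says whether replicates were separate cultures, so p-values reflect only how far these samples differ, which may be technical variation. Values are log2 expression after the authors' RMA normalization.

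The Trim71 transcript read 9.00, 8.95 and 8.98 on knockdown arrays 1 to 3, against 10.48, 10.50 and 10.51 on control arrays 1 to 3, so the labels matched the target. Its log2 fold change of −1.52 left 34.9% of the control level, with an exact two-sided permutation p of 0.1, the smallest that 3 against 3 arrays can give. Markers of embryonic stem cells were bright in both groups, with mean log2 levels of the 12 genes from 9.43 to 12.96. Knockdown array 3 stood apart from the others, with an upper quartile of 8.42 against 8.32 to 8.35 elsewhere. It was also the highest knockdown array for 7 of the 10 Polycomb genes, so the results for the members that lead are given without it too. The levels are of whole cultures, in which a change in the share of cells that hold a transcript and a change per cell cannot be told apart.

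Promoters of the 2 members called higher at an adjusted p under 0.05, Jarid2 and Mtf2, are shown beside those of Suz12 and Phf19. Suz12 is a core subunit that was not called, though its groups separated upward. Phf19 is a paralog of Mtf2 whose groups overlapped. Each window runs from 250 bases before to 50 bases after a start, 5′ to 3′ on the gene's own strand. The start used is the most upstream one with a promoter window (GRCm38.p6). In RefSeq the Phf19 gene begins at 34914353, upstream of its whole window. The genes Mtf2, Ezh2 and Aebp2 also begin upstream of the start used. Capitals mark matches to an E2F site (TTTCCCGC or TTTGGCGC), a CCAAT box (CCAAT) or a GC box (GGGCGG), searched on both strands. The Jarid2 window lies at chr13:44730524-44730823 (plus strand), that of Mtf2 at chr5:108065424-108065723 (plus strand), that of Suz12 at chr11:79992856-79993155 (plus strand) and that of Phf19 at chr2:34913927-34914226 (minus strand).
Jarid2: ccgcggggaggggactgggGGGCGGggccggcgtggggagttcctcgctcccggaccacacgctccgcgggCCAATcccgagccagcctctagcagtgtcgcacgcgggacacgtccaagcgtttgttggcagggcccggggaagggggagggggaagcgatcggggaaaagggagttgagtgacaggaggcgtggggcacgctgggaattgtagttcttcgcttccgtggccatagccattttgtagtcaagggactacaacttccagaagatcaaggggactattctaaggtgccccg
Mtf2: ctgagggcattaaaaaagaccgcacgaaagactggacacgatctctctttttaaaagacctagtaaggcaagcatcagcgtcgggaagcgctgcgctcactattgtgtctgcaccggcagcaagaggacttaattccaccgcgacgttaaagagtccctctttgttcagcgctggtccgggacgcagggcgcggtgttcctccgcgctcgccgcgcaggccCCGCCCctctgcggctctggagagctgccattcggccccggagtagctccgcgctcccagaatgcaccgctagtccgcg
Suz12: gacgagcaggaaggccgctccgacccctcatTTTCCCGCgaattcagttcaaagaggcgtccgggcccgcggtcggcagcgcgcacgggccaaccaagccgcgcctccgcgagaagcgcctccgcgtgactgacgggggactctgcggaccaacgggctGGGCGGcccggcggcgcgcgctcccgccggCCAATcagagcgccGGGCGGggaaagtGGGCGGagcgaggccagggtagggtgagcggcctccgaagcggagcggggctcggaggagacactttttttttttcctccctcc
Phf19: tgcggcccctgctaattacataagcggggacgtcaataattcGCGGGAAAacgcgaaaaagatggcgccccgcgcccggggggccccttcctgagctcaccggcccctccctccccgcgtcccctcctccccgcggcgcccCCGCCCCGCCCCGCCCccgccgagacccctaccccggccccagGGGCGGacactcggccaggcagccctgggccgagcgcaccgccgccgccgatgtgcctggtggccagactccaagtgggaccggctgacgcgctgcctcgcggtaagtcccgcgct

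All 10 members had at least 1 promoter window in the table. The most upstream window of each held between 4 and 41 CpG dinucleotides, with a median of 27, against a median of 15 over the 15613 named genes on the array with a window. The lowest count belonged to Aebp2, whose table entry has 3 windows with 4, 21 and 4 CpG dinucleotides. The E2F letters were found in the windows of Ezh2, Suz12 and Phf19, and in 2.32% of all 15613 windows. The Jarid2 and Mtf2 windows shown above hold none of them. A CCAAT box was present in the windows of Jarid2, Ezh2, Eed and Suz12, against 38.4% of all windows, and a GC box in those of Jarid2, Suz12, Mtf2, Phf19 and Rnf2, against 49.9%. The ETS letters CCGGAAGT were in 0 of the 10 windows and in 5.56% of all. Overlapping matches of 1 motif, as among the GC boxes of Phf19, were each counted. A match is a run of letters and was not read as a bound site.

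The comparison of knockdown with control cells asked whether the supply of Polycomb subunit transcripts differed when Trim71 was reduced. Mtf2 and Jarid2, accessory subunits that help to bring PRC2 to its target sites, rose in knockdown cells by 22.3% and 15.0%, and no member was called lower. These 2 of 10 members compare with 3.39% of all 19937 genes called higher and 2.15% called lower in limma at an adjusted p under 0.05. All 10 members lay above the median level of all genes, so these shares are not matched for brightness. A fit of only the genes above that level, a smaller set, called more genes higher, 1124, among them 4 members. The share of genes called higher in that fit was therefore well above 3.39%. With 1 array left out, the members called higher were 1 without knockdown array 1 or 3 (Mtf2 in both) and 0 without knockdown array 2 or any 1 control array. Over all genes the counts were 675 higher and 428 lower. They were 779 and 763 when quantile normalization was run again, 527 and 616 once each array was centred on its median, and 603 and 699 when knockdown array 3 was dropped. Dropping any other array gave 148 to 449 higher and 101 to 205 lower. Aebp2, a further accessory subunit, was 16.1% higher and just missed that threshold (adjusted p = 0.0571). The catalytic subunit transcripts, Eed, Phf19 and Rnf2 differed by at most 4.44% in either direction. The knockdown and control values did not overlap for 6 members, all higher in knockdown cells. Over all genes, 25.5% had groups that did not overlap, 14.7% with knockdown higher and 10.8% with knockdown lower. These shares are not matched for brightness either. Among the 12 stem cell markers, with a median log2 level of 11.58 against 11.12 for the members, 7 separated upward and 1 downward. The median log2 fold change of the 10 was 0.09, against 0.0048 over all genes.

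**Figure D1:**
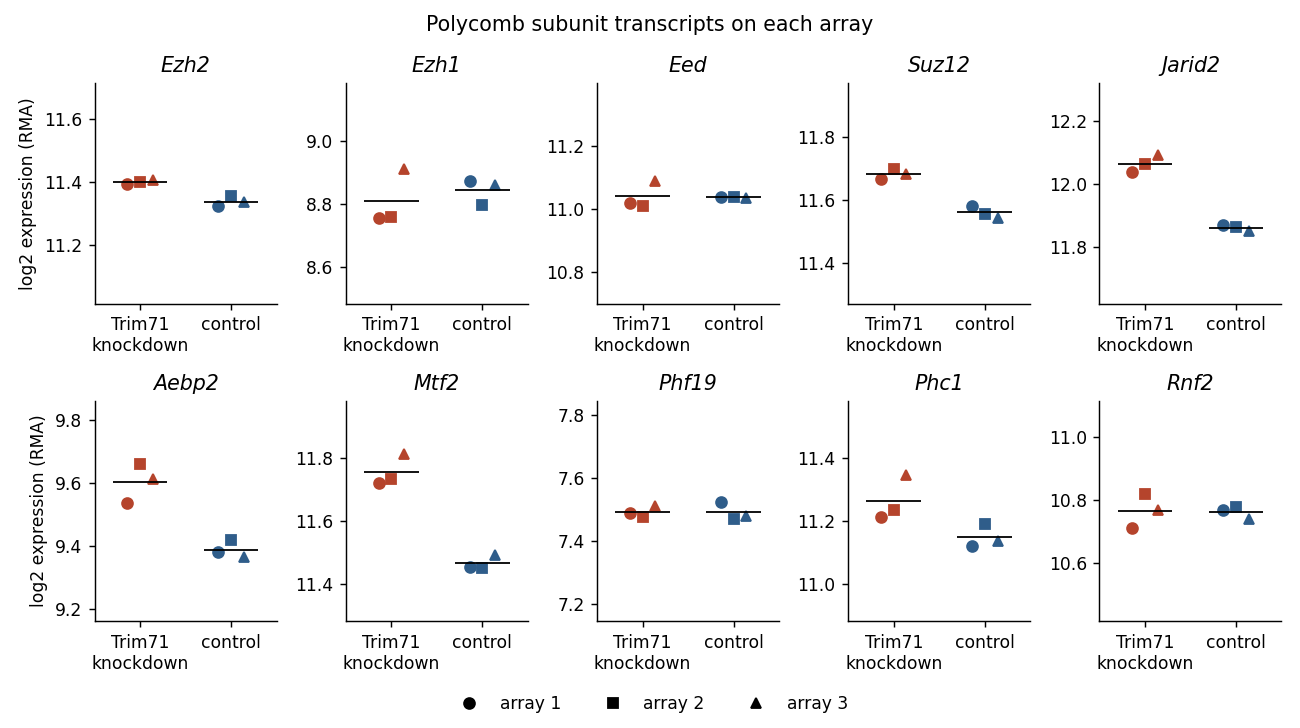
Log2 expression (RMA, vertical axis) of each of the 10 members on the 3 Trim71 knockdown arrays (red, left) and the 3 control arrays (blue, right), with array numbers as symbols and group means as black bars. Every panel spans the same height in log2 units. The groups are separate for Jarid2, Mtf2, Aebp2, Suz12, Ezh2 and Phc1, and intermingle for Ezh1, Eed, Phf19 and Rnf2.

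The core of PRC2 holds a methyltransferase, Ezh2 or Ezh1, the scaffold Suz12, and Eed, which binds the methylated histone tail and stimulates the enzyme. Suz12 read 11.67, 11.70 and 11.68 on the knockdown arrays and 11.58, 11.56 and 11.54 on the control arrays. Every knockdown value lay above every control value, and the gap between the groups, 0.086 log2 units, exceeded the range within either. The log2 fold change was 0.12 ± 0.044 (SE, n = 3 per group) with an adjusted p of 0.183 in limma, so the difference did not pass the test across all genes. The unadjusted 95% interval corresponds to a level 1.33 to 16.9% above control.

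Ezh2, the main methyltransferase of dividing cells, read 11.39, 11.40 and 11.41 on the knockdown arrays and 11.32, 11.36 and 11.33 on the control arrays. The groups did not overlap, but the gap was small, and the log2 fold change of 0.06 ± 0.044 (SE, n = 3 per group) did not pass (adjusted p = 0.515 in limma). Ezh1, its paralog with weaker methyltransferase activity, read 8.76, 8.76 and 8.91 on the knockdown arrays and 8.87, 8.80 and 8.86 on the control arrays. Knockdown array 3 held the highest Ezh1 value of all 6 and the other knockdown arrays the lowest, so the groups overlapped. Its log2 fold change was −0.03 ± 0.059 (SE, n = 3 per group, adjusted p = 0.83 in limma). Leaving out knockdown array 3 gave −0.086, leaving out knockdown array 1 gave −0.0083, and Ezh1 was called in neither fit. To ask whether the paralogs changed unequally, the log2 difference of Ezh1 and Ezh2 was taken within each array. It was 0.097 lower in knockdown than in control arrays, with an exact two-sided permutation p of 0.2, where 0.1 is the smallest possible.

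Eed had the smallest log2 fold change of the 4 core transcripts. It read 11.02, 11.01 and 11.09 on the knockdown arrays and 11.04 on each control array, a log2 fold change of 0.0018 ± 0.047 (SE, n = 3 per group, adjusted p = 0.992 in limma). The 95% interval runs from 7.14% below to 7.95% above control, so a larger change of Eed lies outside it. A second Eed probe set was dim, with log2 levels from 4.65 to 5.12 over the 6 arrays, overlapping groups and a log2 fold change of 0.06. The dim set was not used for the call. Each of the other 9 members had 1 probe set, so no second reading of their change was had.

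Jarid2 and Aebp2 mark one form of PRC2. Jarid2 belongs by sequence to the Jumonji family but lacks demethylase activity, and it binds ubiquitinated H2A and stimulates the methyltransferase. Its transcript read 12.04, 12.06 and 12.09 on the knockdown arrays and 11.87, 11.86 and 11.85 on the control arrays. The gap of 0.17 between the groups was several times the range within either, 0.054 among knockdown and 0.019 among control arrays. Its log2 fold change was 0.20 ± 0.045 (SE, n = 3 per group, adjusted p = 0.0439 in limma), a level 7.05 to 23.6% above control by the 95% interval. The call lay close to the threshold and was lost in each of the 6 fits that left out 1 array, where the adjusted p ranged from 0.0552 to 0.161. The estimate itself stayed between 0.19 and 0.22 in those fits, and was 0.19 without knockdown array 3.

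Aebp2, a zinc finger protein that joins Jarid2 in this form of PRC2, read 9.54, 9.66 and 9.61 on the knockdown arrays and 9.38, 9.42 and 9.36 on the control arrays. The groups did not overlap, but the knockdown arrays were spread over 0.12 log2 units, about as wide as the gap between the groups. Its log2 fold change was as large as that of Jarid2, 0.22 ± 0.052 (SE, n = 3 per group), with an adjusted p of 0.0571 in limma. Both genes therefore lay near the threshold, on either side of it, and their separation into called and not called says nothing of a difference between them. Without knockdown array 3 the log2 fold change of Aebp2 was 0.21 (adjusted p = 0.0759). Aebp2 was called in 4 of the 16 alternatives, and its adjusted p ranged from 0.00539 to 0.201 over all of them.

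Mtf2 and Phf19 are Polycomb-like proteins, which bind unmethylated CpG-rich DNA and direct the other form of PRC2. Mtf2, the main Polycomb-like protein of mouse embryonic stem cells, had the largest change of the 10. It read 11.72, 11.73 and 11.81 on the knockdown arrays and 11.45, 11.45 and 11.49 on the control arrays. The lowest knockdown array lay 0.23 above the highest control array, and array 3 was the highest of each group. The log2 fold change was 0.29 ± 0.049 (SE, n = 3 per group, adjusted p = 0.018 in limma), or 1.22-fold, and Mtf2 ranked 454 of 19937 genes by p. Without knockdown array 3 it was 0.26 with an adjusted p of 0.0234. The call was lost without control array 1, 2 or 3 (adjusted p = 0.0938, 0.0898 and 0.0626 in limma) and without knockdown array 2 (adjusted p = 0.0644), while the log2 fold change stayed between 0.26 and 0.31.

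Phf19 read 7.49, 7.48 and 7.51 on the knockdown arrays and 7.52, 7.47 and 7.48 on the control arrays. The values intermingled, and the log2 fold change was 0.0021 ± 0.045 (SE, n = 3 per group, adjusted p = 0.99 in limma), with a 95% interval from 6.90% below to 7.73% above control. Probe sets differ in brightness for reasons other than abundance, so the levels of Mtf2 and Phf19 were not compared. The 95% intervals of the 2 paralogs' changes did not overlap, and the difference between them was not tested.

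Neither PRC1 member was called. Phc1, a Polyhomeotic protein whose SAM domain links PRC1 complexes into larger assemblies, read 11.21, 11.23 and 11.34 on the knockdown arrays and 11.12, 11.19 and 11.14 on the control arrays. The groups were separated by 0.022 log2 units only, and knockdown array 3 lay apart from the other knockdown arrays. The log2 fold change was 0.12 ± 0.055 (SE, n = 3 per group, adjusted p = 0.313 in limma), and it was 0.07 without knockdown array 3. Rnf2 (Ring1B), the main ubiquitin ligase of PRC1 in these cells, read 10.71, 10.82 and 10.77 on the knockdown arrays and 10.77, 10.78 and 10.74 on the control arrays. The knockdown arrays enclosed the control arrays, and the log2 fold change was 0.0032 ± 0.049 (SE, n = 3 per group, adjusted p = 0.984 in limma).

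**Figure D2:**
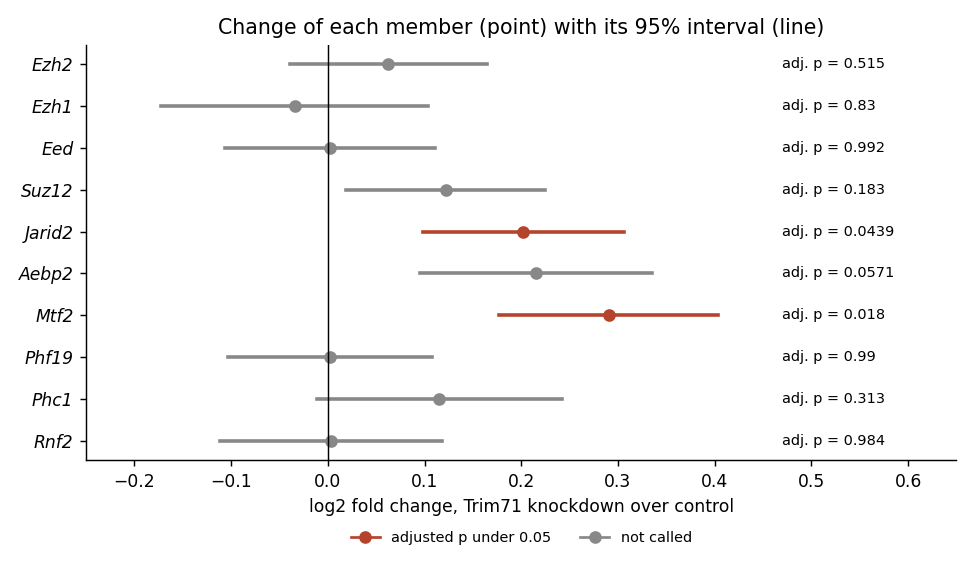
Log2 fold change of each member, Trim71 knockdown over control (horizontal axis), as a point with its unadjusted 95% confidence interval from limma as a line, and the adjusted p at the right. Mtf2 at 0.29 and Jarid2 at 0.20 are called (red), while Aebp2 at 0.22 and Suz12 at 0.12 have intervals above 0 but adjusted p-values of 0.0571 and 0.183.

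The 3 genes whose values over the 6 arrays followed those of Jarid2 most closely were Prrc2c, Mkrn1 and Zfp148, each with a Pearson correlation of 0.999. Of all genes, 1342 had a correlation with Jarid2 above 0.9. The 6 arrays form only 2 groups, so likeness over them largely restates that a gene differed between the groups. Prrc2c had a log2 fold change of 0.15, the ubiquitin ligase gene Mkrn1 one of 0.25, and the zinc finger gene Zfp148 one of 0.49.

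The other subunits of the complexes were read from lists of pathway genes. Among 33 further PRC1 and PRC2 subunits that were measured, 5 rose and 0 fell in limma, or 15.2%, against 5.53% of all genes called in either direction, and their median log2 fold change was 0.06. The lists, like the members, were chosen with earlier results of these data known. Shares called in them are therefore descriptions and not independent of the data. The partners Rbbp4 and Rbbp7, histone-binding proteins of the PRC2 core, were at −0.02 and −0.03 with overlapping groups, and 0 of these 2 was called. Of 4 other accessory PRC2 subunits 1 rose. This was Epop, which joins PRC2 with the Polycomb-like proteins. Epop read 10.55, 10.53 and 10.61 on the knockdown arrays and 10.34, 10.38 and 10.34 on the control arrays, a log2 fold change of 0.21 ± 0.047 (SE, n = 3 per group, adjusted p = 0.0462 in limma). Its groups did not overlap, and its call was lost with any 1 array left out, at an adjusted p of up to 0.184. Phf1, the remaining Polycomb-like gene, was at −0.0022, and Lcor and Lcorl, whose longer products bind PRC2, were at 0.07 and −0.10, and these 3 were not called.

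In PRC1, 0 of 7 other ligase subunits was called in limma, with 2 at an unadjusted p under 0.05, and 2, 1 and 2 were called among genes above the median level, with a trended and robust prior, and with array weights. The 2 with an unadjusted p under 0.05 were Pcgf2 at 0.16 (adjusted p = 0.105) and Bmi1 (Pcgf4) at −0.25 (adjusted p = 0.129), paralogs that occupy the same place in canonical PRC1, and Ring1 was at 0.12 (adjusted p = 0.312). Bmi1 read 6.76, 6.56 and 6.79 on the knockdown arrays and 6.84, 7.03 and 7.00 on the control arrays, so that its groups separated downward, while those of Pcgf2 separated upward. Of the 7 genes, 1 separated upward and 2 downward, against 14.7% and 10.8% of all genes. The other downward gene was Pcgf1 at −0.08 (adjusted p = 0.422 in limma).

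Of 7 other canonical PRC1 subunits 1 rose, or 14.3%, against 5.53% of all genes called in either direction. Its change was the largest among the Polycomb subunits. Scmh1, a relative of the Drosophila protein Sex comb on midleg, read 9.11, 9.01 and 9.15 on the knockdown arrays and 8.41, 8.48 and 8.43 on the control arrays. It had a log2 fold change of 0.65 ± 0.055 (SE, n = 3 per group, adjusted p = 0.00185 in limma), or 1.57-fold. Scmh1 ranked 37 of 19937 genes by p and stayed called with any 1 array left out, at an adjusted p of up to 0.0183. Cbx2, which binds methylated H3, was at 0.20 (adjusted p = 0.106) and Scml2 at 0.17 (adjusted p = 0.175), and neither was called.

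Of 13 variant PRC1 subunits 3 rose and 0 fell, or 23.1%, against 5.53% of all genes called in either direction. The log2 fold changes of the list were mixed, with 6 of 13 below 0 and a median of 0.03. Bcor, a corepressor that joins the Pcgf1 complex, read 7.68, 7.66 and 7.71 on the knockdown arrays and 7.33, 7.27 and 7.26 on the control arrays. This was a log2 fold change of 0.40 ± 0.047 (SE, n = 3 per group, adjusted p = 0.00584 in limma), and it stayed called with any 1 array left out. Fbrsl1 rose by 0.33 (adjusted p = 0.0269) and its relative Fbrs by 0.32 (adjusted p = 0.0315), and these calls were lost in 4 and 5 of the 6 fits without 1 array. The groups separated upward for 4 of the 13 genes, against 14.7% of all genes. These were the 3 called genes and Usp7 at 0.15 (adjusted p = 0.115 in limma). Groups separated downward for 2 of the 13, against 10.8% of all genes. Usp7 and these 2 are named here after their values were seen. The 2 that separated downward follow. These were Rybp at −0.11 (adjusted p = 0.343), which joins the ligase of variant PRC1, and Kdm2b at −0.04 (adjusted p = 0.748), which binds unmethylated CpG-rich DNA, and neither was called.

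**Figure D3:**
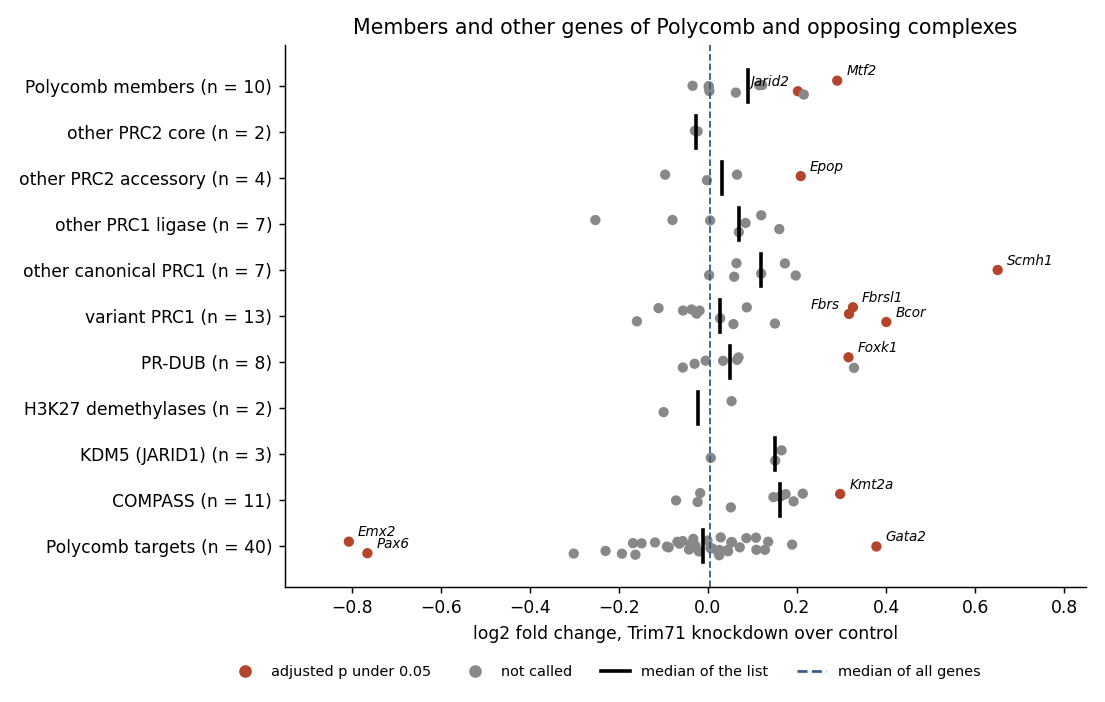
Log2 fold change, Trim71 knockdown over control (horizontal axis), of every measured gene of the members and of 10 further lists (rows), with called genes in red and named, the list's median as a black bar and the median of all genes as a dashed line. Points are spread vertically at random for legibility. Scmh1 at 0.65 lies farthest right, and Emx2 and Pax6 among the target genes lie farthest left.

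Enzymes that act against the Polycomb marks or place the opposing mark were set beside the members. Of 8 genes of the deubiquitinase complex that removes ubiquitin from H2A, 1 rose, or 12.5%, against 5.53% of all genes called in either direction. This was Foxk1, a forkhead factor that binds the complex, at 0.32 ± 0.046 (SE, n = 3 per group, adjusted p = 0.0114 in limma). Its call was lost in 3 of the 6 fits without 1 array. Mbd6 at 0.33 (adjusted p = 0.105) and Hcfc1 at 0.07 were not called. The demethylases of the PRC2 mark, Kdm6a at 0.05 and Kdm6b at −0.10, were not called, and neither were the 3 relatives of Jarid2 that demethylate another lysine of histone H3, Kdm5b at 0.17, Kdm5a at 0.15 and Kdm5c at 0.0065.

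Of 11 subunits of the COMPASS methyltransferases, which place the mark of active promoters, 1 rose, or 9.09%, against 5.53% of all genes called in either direction. This was Kmt2a (MLL1), at 0.30 ± 0.057 (SE, n = 3 per group, adjusted p = 0.0275 in limma), with the call lost in 4 of the 6 fits without 1 array. The list's median log2 fold change, 0.16, was larger than the 0.09 of the Polycomb members, and the groups separated upward for 7 of 11 genes, against 14.7% of all genes. Rbbp5 was at 0.21 (adjusted p = 0.0533) and Kmt2d at 0.17 (adjusted p = 0.0811). The number of COMPASS genes called ranged from 0 to 6 over the processing alternatives.

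Developmental regulators that Polycomb complexes occupy in mouse embryonic stem cells were read as the genes downstream of the members. Of 40 measured, 1 rose and 2 fell, 7.5% against 5.53% of all genes, and the median log2 fold change was −0.01. The neural regulator Pax6 read 7.55, 7.44 and 7.76 on the knockdown arrays and 8.28, 8.44 and 8.32 on the control arrays, and fell by 0.76 on the log2 scale (adjusted p = 0.00573 in limma). Emx2, a homeobox gene of forebrain and urogenital tract, fell by 0.81 (adjusted p = 0.00687 in limma), and Gata2, a regulator of blood and trophoblast cells, rose by 0.38 (adjusted p = 0.00793 in limma). The calls of these 3 genes held whichever array was dropped. The list was dim, with a median log2 level of 5.75 against 11.12 for the members, and RMA values come without detection calls, so changes of such genes may be understated.

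Markers of stem cells and of other cell types were read beside these changes, against 3.39% of all genes called higher and 2.15% called lower. Of 12 stem cell markers 2 rose, Klf4 and Zfp42, and 1 fell, Lin28a, and the mean log2 level of the list was 11.28 to 11.33 on the knockdown arrays and 11.21 to 11.24 on the control arrays. Of 10 fibroblast markers 0 rose and 2 fell, the contractile genes Acta2 and Tagln, with list means of 6.07 to 6.21 on the knockdown arrays and 6.19 to 6.32 on the control arrays. Of 8 trophectoderm markers Tfap2c rose, and of 6 neural markers Nes rose and Pax6, which stands in 2 lists, fell. The list means of trophectoderm were 7.70 to 7.78 on the knockdown arrays and 7.68 to 7.75 on the control arrays, and those of the neural list 7.13 to 7.18 on the knockdown arrays and 7.17 to 7.21 on the control arrays. Of 7 primitive endoderm markers 0 were called in limma, with 0 at an unadjusted p under 0.05, and the list means were 5.98 to 6.02 on the knockdown arrays and 6.03 to 6.15 on the control arrays. The part of these shifts in the changes of the Polycomb genes was not tested.

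**Figure D4:**
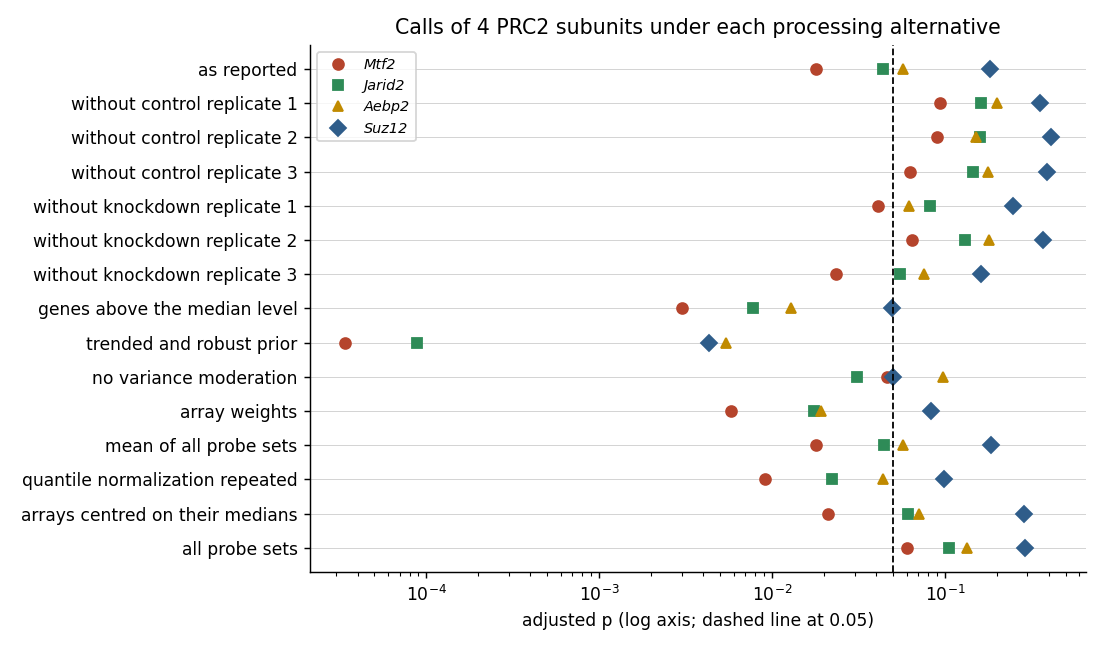
Adjusted p (horizontal log axis, dashed line at 0.05) of Mtf2, Jarid2, Aebp2 and Suz12 as reported and under 14 processing alternatives (rows). Mtf2 and Jarid2 lie on the left of the line in the reported fit and on the right of it in the fit of all probe sets.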

How the data were processed

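RNA of 6 samples of mouse embryonic stem cells, 3 per group, was measured on single-colour Affymetrix arrays. Per the submitters' processing notes, the deposited log2 values were made by the authors with RMA and the affy package, with no version stated. RMA corrects background, quantile normalizes arrays and summarizes probes, and so hides any change common to most genes. Signal over background cannot be read from these values, and the number of arrays limits the precision.

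Of 34760 probe sets, 21640 had 1 gene symbol in GEO's platform annotation, and the brightest per gene was used, which gave 19937 genes. A linear model with group as its single term was fitted in limma 3.58.1 (R 4.3.3, lmFit and eBayes), with Benjamini-Hochberg adjustment over all 19937 genes and an adjusted p under 0.05 as a call. The fit was tested on simulated data, with the spread of each gene drawn at random from those of all genes. It recovered 16% of 1.2-fold changes and 83% of 1.5-fold changes, and 3.88% of its calls were unchanged genes. A gene that was not called may therefore still differ by an amount like those of the members. The simulation changed fewer genes than the 1103 called in the data and did not tie spread to level. Its recovery rates need not hold for the members, most of which were bright. Exact permutation tests used scipy 1.17.1, and plots matplotlib 3.10.9. Promoter windows came from RefSeq (GRCm38.p6). The members, the lists and the rule for named genes (all members and Trim71, each called list gene and up to 3 more per list by moderated t) were chosen with earlier results of these data known. The alternatives are described in the closing section.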

Additional observations from a re-analysis of the deposited data

How the results depend on the processing

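Results were recomputed under 16 alternatives: a replicate block, 6 fits that each dropped 1 array, genes above the median level only, a trended and robust prior, no variance moderation, array weights, the mean over a gene's probe sets, a second quantile normalization, median-centred arrays, a test of all probe sets, and an adjusted p under 0.01. The call of Mtf2 held in 9 of them and that of Jarid2 in 6, and both log2 fold changes were above 0 in all. Mtf2 lost its call at 0.29 with the replicate block (adjusted p = 0.0756 in limma), with all probe sets and at the stricter threshold. Jarid2 lost its call at 0.20 with the replicate block (adjusted p = 0.156), all probe sets and the stricter threshold, and at 0.17 with median-centred arrays. The block, all probe sets and the threshold leave the fold change as it is. Both reported adjusted p-values, 0.018 and 0.0439 in limma, lie above the stricter threshold. Median centring subtracts 1 value from each array and so moved the log2 fold change of every gene by the same amount. That of Jarid2 went from 0.20 to 0.17 and that of Mtf2 from 0.29 to 0.26. Why calls were lost in the other settings was not tested further. Aebp2 gained a call at 0.22 among genes above the median level and with a trended and robust prior, at 0.23 with array weights and at 0.21 with repeated quantile normalization, and Suz12 at 0.12 among genes above the median level, with the trended prior and without moderation. The signs of Eed, Phf19 and Rnf2, none called in any setting, turned with the setting. Eed was −0.018, −0.0019 and −0.028 with array weights, repeated quantile normalization and centred arrays, Phf19 −0.010, −0.027 and −0.028, and Rnf2 −0.0048 and −0.027 with the last 2. With each array left out, Jarid2 ranged from 0.19 to 0.22, Mtf2 from 0.26 to 0.31, Ezh1 from −0.086 to −0.0083, Eed from −0.023 to 0.017, Phf19 from −0.0090 to 0.018 and Rnf2 from −0.023 to 0.030. The number of members called higher was 0 with the block, all probe sets and the stricter threshold, 1 with centred arrays, 4 among genes above the median level and with the trended prior, and 0 to 1 with an array left out, and 0 were called lower in limma under any setting.

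Counts of genes called higher and lower were 171 and 108 with the replicate block, 1124 and 766 among genes above the median level, 1213 and 854 with the trended prior, 271 and 142 without moderation, 1114 and 1058 with array weights, 266 and 134 for all probe sets, 152 and 94 at the stricter threshold, and 148 to 603 and 101 to 699 with an array left out, while repeated quantile normalization gave 763 lower. For same-numbered arrays the correlations of their deviations from the group means were −0.017, −0.15 and −0.24, and 0 of 6 arrays correlated best with its own number. With 3 arrays per group such values cannot settle whether same-numbered arrays were paired, which the labels do not say. With the block, calls were 0 for other PRC2 accessory genes, 1 for variant PRC1, 0 for the deubiquitinase complex and 0 for COMPASS. Accessory PRC2 genes also had 0 calls without moderation, with centred arrays, all probe sets, the stricter threshold and any array left out (0 to 0). Other PRC1 ligase genes had 2, 1 and 2 calls among genes above the median level, with the trended prior and with array weights, and other canonical PRC1 genes 2 in each of these. Variant PRC1 had 1 without moderation, with all probe sets and at the stricter threshold, and 1 to 3 with an array left out. The deubiquitinase complex had 2 among genes above the median level and with the trended prior, 0 at the stricter threshold and 0 to 2 with an array left out. The JARID1 family had 1 among genes above the median level and with the trended prior. COMPASS had 6 among genes above the median level, 5 with the trended prior, 4 with array weights and with repeated quantile normalization, 2 with the mean of probe sets, 0 without moderation, with all probe sets and at the stricter threshold, and 0 to 1 with an array left out. Polycomb targets had 1 among genes above the median level, a fit that left out Emx2 and Gata2 as too dim, and 1 without moderation. The change of the Ezh1 and Ezh2 difference ranged from −0.15 to −0.072 with an array left out. Deposited values without detection calls limit what dim genes can show.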
